A study of Homo sapiens with 8 samples.

Results

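The RNA of VMP1, the gene whose far end carries the microRNA miR-21, was followed with both arms of miR-21 and with PDCD4 and SPRY2, messenger RNAs that have been described as targets of miR-21, in human cells that had lost BCDIN3D. The 5 rows were VMP1, PDCD4 and SPRY2 in the gene count files (3 of 57996 rows) and hsa-miR-21-5p and hsa-miR-21-3p in the microRNA count files (2 of 2656 rows), or 5 of 60652 rows in all. They were chosen by name with the difference between knockout and wild-type already known, so their own differences are given as a description with an error and without a test. The cells were HAP1, a near-haploid line that grows attached and derives from a chronic myelogenous leukaemia. The knockout group was BCDIN3D KO clone 11 and the wild-type group was the HAP1 WT line. Both groups grew for 48 h in IMDM with 10% serum, and the same RNA went into a total RNA library and a small RNA library. Each group therefore had 2 RNA-seq and 2 small RNA-seq libraries, 8 in all, with replicate 1 of every group carrying the earlier and replicate 2 the later of 2 dates in its label. The design text calls them biological replicates and says no more about the cultures, so the p-values measure the spread between these libraries, which may in part be technical. With 1 knockout clone, differences between clones and the loss of BCDIN3D cannot be told apart. BCDIN3D is an RNA methyltransferase that modifies the 5′ phosphate of histidine transfer RNA and has been described to act on microRNA precursors.

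VMP1 is a membrane protein of the endoplasmic reticulum that moves lipids between the leaflets of the membrane and is needed for autophagosomes to form and detach. The miR-21 hairpin lies at the end of the gene and can be made from a promoter of its own inside VMP1 or from VMP1 transcripts that read through. A microRNA is cut from a hairpin that yields a 5p and a 3p strand; 1 of them is usually retained in an Argonaute protein and the other degraded, and the retained strand lowers messenger RNAs that pair with its seed. miR-21-5p is among the most studied microRNAs in tumour cells. Its described targets include PDCD4, which binds the helicase eIF4A and holds back translation, and SPRY2, which restrains growth factor signalling to ERK.

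On GRCh38.p14, the RefSeq build whose table was used for positions, VMP1 spans bases 59707654 to 59842255 of chromosome 17 on the plus strand, 134602 bases. The MIR21 hairpin spans bases 59841266 to 59841337, 72 bases that lie inside the VMP1 span, 133612 bases after its start and 918 bases before its end. The table gives whole gene spans, so exons, introns and UTRs were not assigned. PDCD4 lies on chromosome 10 (110871928 to 110900006) and SPRY2 on chromosome 13 (80335976 to 80341126). The mature 5p strand occupies positions 8 to 29 of the hairpin. Its sequence is shown with that of miR-590-5p, since these 2 alone of the 2370 human mature sequences in the RefSeq table carry the seed AGCUUAU. Capitals mark the seed, bases 2 to 8, and sequences run 5′ to 3′.
hsa-miR-21-5p, chr17:59841273-59841294, plus strand: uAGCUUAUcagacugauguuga
hsa-miR-590-5p, chr7:74191213-74191234, plus strand: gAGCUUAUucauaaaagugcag
Outside the seed these strands have little in common. With the seed included, 8 of 22 positions hold the same base when the strands are aligned at their 5′ ends.

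The start of VMP1 faces that of PTRH2, which codes for a mitochondrial peptidyl-tRNA hydrolase and runs the other way. The 223 bases between the 2 starts, 58.7% of them G or C, are shown because this stretch lies upstream of both genes. The sequence is that of the plus strand from RefSeq, and capitals mark matches to CCGGAA or its complement and to TGACGT.
chr17:59707431-59707653: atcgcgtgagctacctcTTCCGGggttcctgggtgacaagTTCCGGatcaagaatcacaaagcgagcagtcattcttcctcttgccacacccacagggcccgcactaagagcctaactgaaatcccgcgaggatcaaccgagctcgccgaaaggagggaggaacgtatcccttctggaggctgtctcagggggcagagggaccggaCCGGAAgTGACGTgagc
Both strands were searched. CCGGAA, the core bound by ETS factors, matched 3 times, 206 and 183 bases before the VMP1 start on the minus strand and 17 bases before it on the plus strand, and 13.6% of 34943 RefSeq promoter windows of the same length hold at least 1 match. TGACGT, the core bound by CREB and ATF factors, matched once, 10 bases before the start, and 6.65% of the windows hold it. These 2 motifs were searched after the sequence had been read. Other motifs did not occur in this window: the CCAAT box, found in 30.0% of the windows, the TATA motif TATAAA in 9.66%, the E-box CACGTG in 5.88% and the GC box GGGCGG in 41.4%.

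The RNA-seq libraries held 20065041 to 24415272 counts, and small RNA-seq gave 157706 and 346626 counts over microRNAs in knockout and 236073 and 266466 in wild-type. Levels are in CPM, the usual depth-scaled count, on library sizes scaled by the trimmed mean of M values. In small RNA-seq 1 count was worth 5.50 and 2.91 CPM in the knockout libraries and 4.62 and 4.32 CPM in the wild-type libraries. The biological coefficient of variation was 5.53% among RNA-seq replicates and 109% among small RNA replicates. A gene or microRNA is called higher or lower where its adjusted p (edgeR quasi-likelihood test, Benjamini-Hochberg over all rows tested) is below 0.05. By that rule 6.56% of the 16233 genes tested and 0.366% of the 546 microRNAs tested were called, which for microRNAs was 0 higher and 2 lower (11 had an unadjusted p below 0.05). BCDIN3D, whose span overlaps that of BCDIN3D-AS1, was at 1.56 and 2.71 CPM in knockout and at 7.40 and 4.90 CPM in wild-type (log2 fold change -1.52 ± 0.24 SE, adjusted p = 2.06e-05). Of 12 blood cell genes 1 was abundant enough to test, KIT (adjusted p = 2.61e-16, lower in knockout), whose product is the receptor for stem cell factor. Their summed level was 1.09 and 1.66 CPM in knockout, against 11.4 and 12.0 CPM in wild-type, and 2 of the 12 were at 0 in all libraries. BCR and ABL1, the genes joined in the parent leukaemia, were expressed in both groups, at 29.4 and 12.9 CPM in knockout and 28.9 and 11.8 CPM in wild-type. Of 8 tested genes of attached mesenchymal or epithelial cells, VIM and SPARC were called higher and EPCAM, KRT8 and KRT18 lower. That was 2 higher and 3 lower, against 3.06% and 3.50% of all genes, and 3 were not called. DESeq2 called 2 higher and 1 lower, and EPCAM (adjusted p = 0.187) and KRT18 (adjusted p = 0.225) lost their call there. Of the called marker genes, KIT and KRT8 kept their call in all 10 alternative fits. The part of these marker differences in the results that follow was not tested.

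VMP1 was lower in both knockout libraries than in both wild-type libraries. Its counts were 1138 and 1124 in knockout and 1484 and 1582 in wild-type, or 53.8 and 56.5 CPM in knockout and 71.3 and 64.1 CPM in wild-type. The groups did not overlap, the wild-type pair stood further apart than the knockout pair, and 21.8% of all tested genes were likewise lower without overlap (45.3% did not overlap in either direction). The means were 55.2 ± 1.90 CPM in knockout and 67.7 ± 5.13 CPM in wild-type (SD, n = 2 each), so knockout held 81.5% of the wild-type level by the fitted log2 fold change of -0.29 ± 0.08 (SE). Counting error alone gave exact Poisson 95% intervals of 50.7 to 57.0 and 53.3 to 59.9 CPM in knockout and of 67.7 to 75.1 and 60.9 to 67.3 CPM in wild-type. No knockout interval met a wild-type interval, but the 2 wild-type intervals did not meet each other either. Such intervals leave out the spread between replicates. Taken date by date, the log2 difference was -0.41 at the earlier and -0.18 at the later date. The size of the difference was modest in this comparison: 1955 of the 16233 genes, 12.0%, had a lower log2 fold change, and the genes called lower had a median of -1.28. Transcripts from the miR-21 promoter inside VMP1 may be counted in the VMP1 row, where they cannot be told apart from VMP1 messenger RNA. Fewer cells with the RNA and less RNA per cell cannot be told apart in bulk RNA, here or below.

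**Figure D1:**
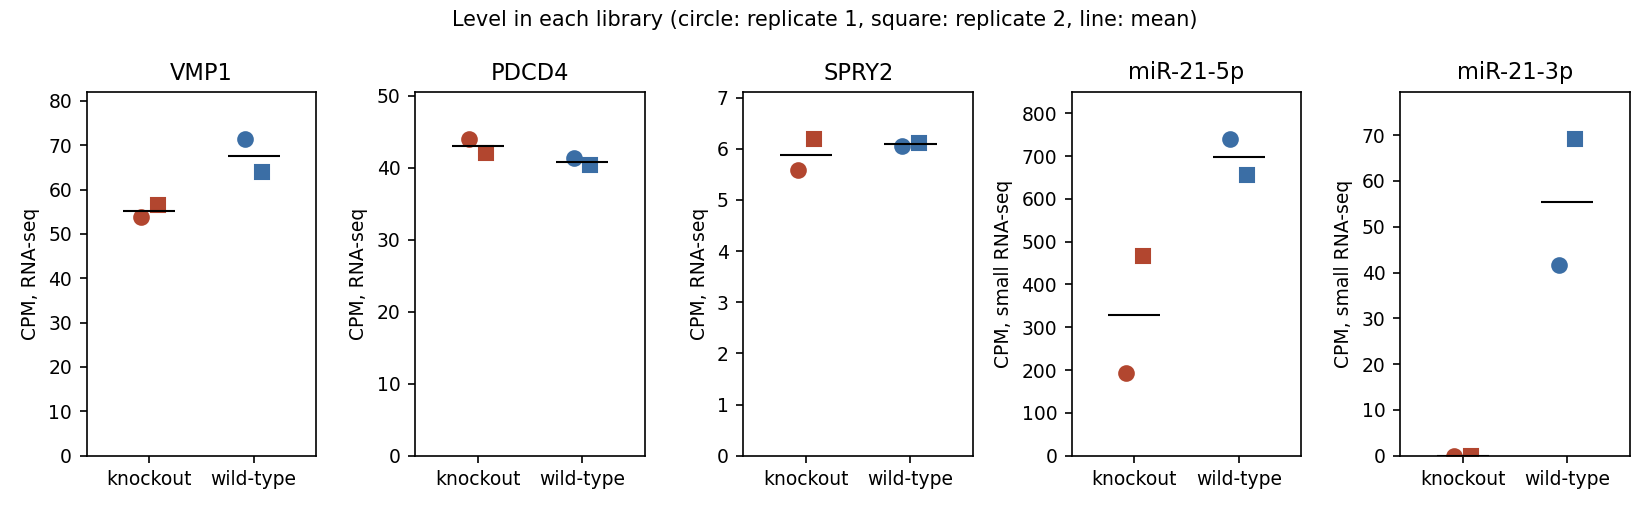
Level of VMP1, PDCD4, SPRY2, miR-21-5p and miR-21-3p in each library, in CPM from 0, with knockout left of wild-type, circles for replicate 1, squares for replicate 2 and a line at the mean of 2 libraries. The knockout points of VMP1, at 53.8 and 56.5 CPM, lie below the wild-type points, at 71.3 and 64.1 CPM, those of miR-21-5p lie apart from each other at 192 and 465 CPM, those of miR-21-3p lie at 0, and those of SPRY2 span the wild-type points.

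miR-21-5p, the retained strand, was lower in both knockout libraries too, but these differed widely from each other. It had 35 and 160 counts in knockout and 160 and 152 counts in wild-type, which made 192 and 465 CPM in knockout and 739 and 656 CPM in wild-type. The second knockout library thus held as many miR-21-5p counts as the first wild-type library, in a library with more counts in all, and the low value was that of the shallowest small RNA library. The groups did not overlap in CPM, as for 14.1% of all tested microRNAs in this direction and 31.5% in either. The means were 329 ± 193 CPM in knockout and 697 ± 58.5 CPM in wild-type (SD, n = 2 each), and the log2 fold change was -1.08 ± 0.59 (SE), or 47.4% of the wild-type level. The date-by-date log2 differences were -1.90 and -0.49. Exact Poisson 95% intervals ran over 134 to 268 and 396 to 543 CPM in knockout and over 629 to 863 and 556 to 769 CPM in wild-type, so the knockout replicates differed by more than counting error. Without the first knockout library the log2 fold change was -0.57, and without the second it was -1.82. Among the microRNAs tested, 94 (17.2%) had a lower log2 fold change than miR-21-5p.

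As a share of all microRNA counts, miR-21-5p made up 0.0222% and 0.0462% in knockout and 0.0678% and 0.0570% in wild-type. Ordered by CPM it stood at place 78 of 1059 and 58 of 1408 microRNAs with counts in knockout, and at place 36 of 1239 and 37 of 1330 in wild-type. It was thus among the more abundant microRNAs in all 4 libraries, and further down the order in both knockout libraries.

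The gap between its 2 knockout replicates, 1.24 on the log2 scale, was set against that of the 35 other microRNAs whose mean CPM lay within 2-fold of its own 513 CPM, 34 of them tested and 1, miR-217-5p, below the count filter with 380 and 1 counts in knockout and 0 and 0 in wild-type (named after its values were seen). Their median gap was 0.51 in knockout and 0.62 in wild-type, and 8 of the 35 had a wider knockout gap than miR-21-5p. Its wild-type gap was 0.17, and 30 of the 35 had a wider one. The replicates of miR-21-5p therefore lay further apart than those of most like microRNAs in knockout and closer together in wild-type. Of these 35, 6 were lower in knockout without overlap, against 14.1% of all tested microRNAs.

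**Figure D2:**
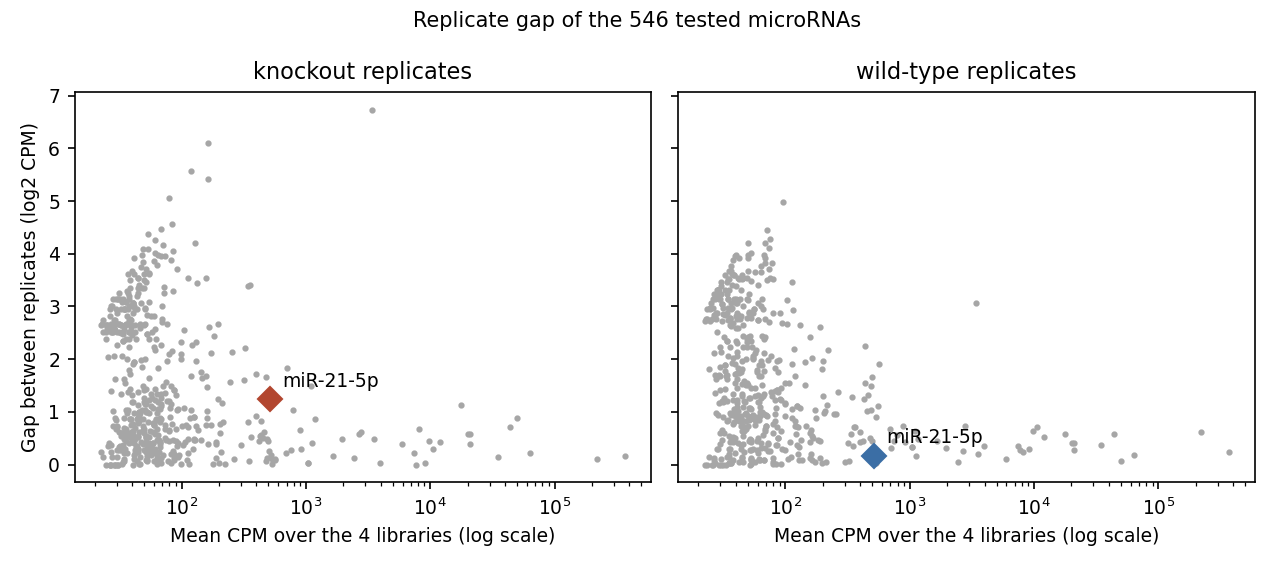
Gap between the 2 replicates (log2 CPM) against mean CPM over the 4 small RNA libraries (log scale) for the 546 tested microRNAs, with knockout on the left and wild-type on the right and 1 point per microRNA. miR-21-5p, the large diamond, lies at a gap of 1.24 in knockout and 0.17 in wild-type.

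miR-21-3p, the strand usually degraded, had counts in the wild-type libraries alone. It had 0 and 0 counts in knockout and 9 and 16 counts in wild-type, or 41.6 and 69.1 CPM in wild-type (mean 55.3 ± 19.4, SD, n = 2). A count of 0 allows up to 3 counts, which is 16.5 and 8.73 CPM in the 2 knockout libraries. Over the group, 3 counts are 5.71 CPM, which is 9.77-fold below the pooled wild-type level. That fold leaves out the counting error of wild-type and the spread between replicates, so it is not a firm lower bound. It had too few counts to enter the fit, so it has no fitted fold change, whereas the other 4 rows passed the filter. In wild-type it stood at place 433 of 1239 and 318 of 1330.

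The 5p strand made up all miR-21 counts in knockout, 35 of 35 and 160 of 160, which is 100% in both libraries with Clopper-Pearson 95% intervals of 90.0 to 100% and 97.7 to 100%. In wild-type it made up 160 of 169 counts, 94.7% (90.1 to 97.5%), and 152 of 168 counts, 90.5% (85.0 to 94.5%). At the depth of the first knockout library, 3 counts of the 3p strand would be 8.57% of the miR-21 counts, a share that lies between the 5.33% and 9.52% of the wild-type libraries, so a difference was not detectable there from that library alone. In the second knockout library the same limit was 1.88%, below both wild-type shares. The mean 5p share differed by 7.42 percentage points between knockout and wild-type. Of 54 other microRNAs with both arms listed and at least 20 counts in each library, 18 had a larger absolute difference, and the median was 2.45 points. Their minor arm was at 0 in both knockout libraries alone for 6 and in both wild-type libraries alone for another 6. A minor arm at 0 in a single group was thus seen in both directions.

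The RNA-seq data did not report on the hairpin: the MIR21 row had 0 counts in all 4 RNA-seq libraries. miR-590-5p, which shares the seed and lies inside EIF4H on chromosome 7, had 0 and 24 counts in knockout and 17 and 0 counts in wild-type. Its detection changed between replicates of the same group, and its log2 fold change of -0.14 carried an SE of 2.75 (adjusted p = 0.999). EIF4H, a helper of the eIF4A helicase, had 0.03 ± 0.06 on that scale (adjusted p = 0.887).

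PDCD4 was slightly higher in both knockout libraries, by less than the SE of its fold change. It had 929 and 837 counts in knockout and 860 and 996 in wild-type, or 43.9 and 42.1 CPM in knockout and 41.3 and 40.3 CPM in wild-type. The groups did not overlap, as for 23.5% of all tested genes in this direction, but the counting intervals of all 4 libraries did, 41.2 to 46.9 and 39.3 to 45.0 CPM in knockout and 38.6 to 44.2 and 37.9 to 42.9 CPM in wild-type. The means were 43.0 ± 1.31 CPM in knockout and 40.8 ± 0.706 CPM in wild-type (SD, n = 2 each), with a log2 fold change of 0.08 ± 0.09 (SE) and date-by-date differences of 0.09 and 0.06. PDCD4-AS1, an antisense neighbour whose RefSeq span does not overlap PDCD4, had 14 and 10 counts in knockout and 8 and 14 counts in wild-type.

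SPRY2 did not separate the groups. Its counts were 118 and 123 in knockout and 126 and 151 in wild-type, which gave 5.58 and 6.18 CPM in knockout and 6.06 and 6.12 CPM in wild-type. The knockout values lay on either side of the wild-type values. The means were 5.88 ± 0.427 CPM in knockout and 6.09 ± 0.0418 CPM in wild-type (SD, n = 2 each), and the log2 fold change was -0.05 ± 0.18 (SE). Its sign depended on 1 library, with 0.02 without the first knockout library.

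Whether genes beside VMP1 differed in the same way was asked of the 67 RefSeq genes within 1 Mb of its ends, of which 20 were tested. None was called higher and none lower (edgeR), against 3.06% and 3.50% of all genes, and DESeq2 also called none; 1 had an unadjusted p below 0.05, as 16.7% of all genes had. Their log2 fold changes ran from -0.18 (GDPD1) to 0.18 (APPBP2), with a median of 0.02, 11 above and 9 below 0. VMP1, at -0.29, lay below all 20. PTRH2, which shares the upstream stretch shown above, was at 31.8 and 32.4 CPM in knockout and 38.0 and 33.2 CPM in wild-type (-0.15 ± 0.09, adjusted p = 0.475). Its knockout values lay below its wild-type values, and the test did not separate them. Of the 20 neighbours, 5 were lower and 2 higher without overlap, against 21.8% and 23.5% of all tested genes. CLTC, the clathrin heavy chain gene on the same side, had -0.08 ± 0.05 (adjusted p = 0.482). Past the far end, the delta-tubulin gene TUBD1 had 0.03 ± 0.12 and the S6 kinase gene RPS6KB1 had 0.00 ± 0.07 (adjusted p = 0.956 and 0.993). APPBP2, which codes for an adaptor protein, was at 0.18 ± 0.07 (adjusted p = 0.145), and was called higher when the label's date was added as a block (adjusted p = 0.0481). The other tested neighbours, RAD51C, PPM1E, TRIM37, SKA2, MIR301A, PRR11, SMG8, YPEL2, DHX40, RNFT1, HEATR6, USP32, PPM1D and BCAS3, lay between the values of GDPD1 and APPBP2. Within 2 Mb, 35 genes were tested and again none was called in either direction. There the log2 fold changes ran from -1.06 to 0.27, and VMP1 was not the lowest. RNF43 (-1.06 ± 0.44, adjusted p = 0.173) and RNU1-85P (-1.04 ± 0.37, adjusted p = 0.0899) lay below it. Both had few counts and were named after their values were seen.

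**Figure D3:**
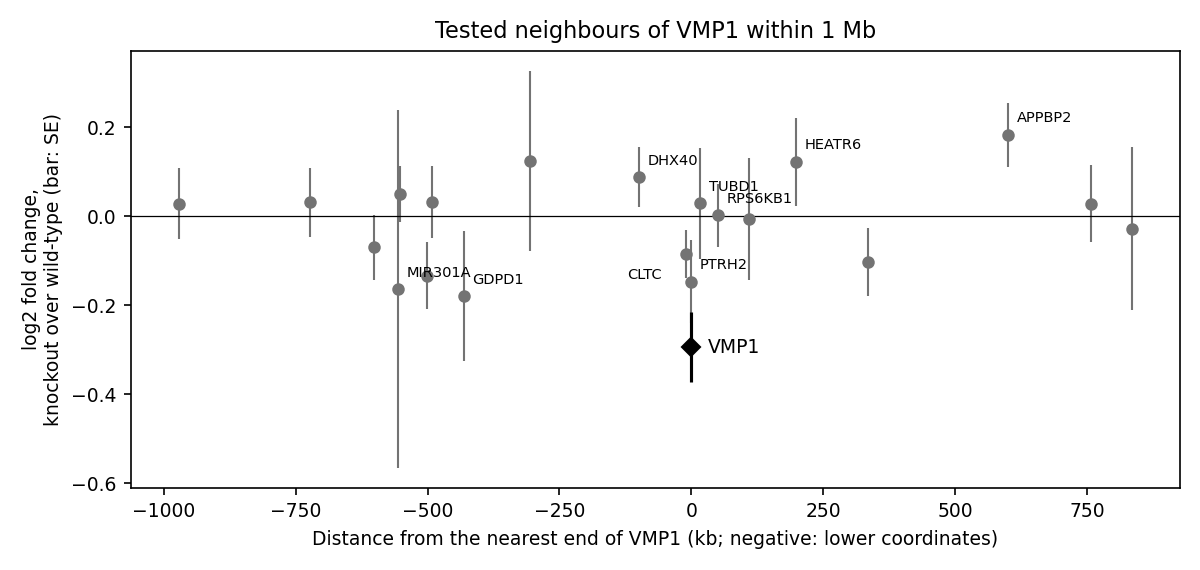
Log2 fold change, knockout over wild-type, of VMP1 (diamond) and its 20 tested neighbours (circles) against distance from the nearest end of VMP1 in kb, with bars of 1 SE. VMP1 at -0.29 lies below the neighbours, which run from -0.18 to 0.18.

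The wider set of described miR-21 targets held 44 genes, 40 of them tested and 38 after PDCD4 and SPRY2 are set aside. Of these 38, 0 were higher and 4 lower in knockout, against 3.06% and 3.50% of all genes, and 34 were not called; DESeq2 gave the same counts. The median log2 fold change was 0.00, that of all genes was 0.00, and 19 lay above and 19 below 0. TIMP3, FASLG, SERPINB5 and CCL20 had too few counts.

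The 4 genes that fell were RHOB, TIAM1, MARCKS and SATB1. RHOB, a small GTPase of the endosome, was at 0.426 and 0.855 CPM in knockout and 2.98 and 4.33 CPM in wild-type (-2.53 ± 0.33, adjusted p = 9.37e-08). TIAM1, which activates the GTPase RAC1, was at 0.378 and 0.452 CPM in knockout and 2.26 and 3.44 CPM in wild-type (-2.78 ± 0.38, adjusted p = 1.90e-07). Both were rare transcripts, with 9 and 17 counts (RHOB) and 8 and 9 counts (TIAM1) in knockout. They passed the count filter only through the wild-type libraries, where they had 62 and 107 counts (RHOB) and 47 and 85 counts (TIAM1). Their 2 calls are therefore a description and lend no support of their own. MARCKS, which binds actin and is a substrate of protein kinase C, was at 122 and 108 CPM in knockout and 181 and 188 CPM in wild-type (-0.68 ± 0.07, adjusted p = 2.75e-11). SATB1, a chromatin organiser, was at 35.7 and 35.9 CPM in knockout and 44.5 and 48.1 CPM in wild-type (-0.37 ± 0.09, adjusted p = 0.00271). RHOB, TIAM1 and MARCKS kept their call in all 10 alternative fits, and SATB1 lost it without the second wild-type library (adjusted p = 0.150).

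Other targets did not pass. TPM1, the tropomyosin gene, was at 283 and 280 CPM in knockout and 267 and 206 CPM in wild-type (0.25 ± 0.11, adjusted p = 0.331), and was called higher in the blocked fit (adjusted p = 0.00407). Its 2 wild-type libraries differed from each other by more than the knockout libraries did. BTG2, a brake on proliferation, had -0.22 ± 0.10 (adjusted p = 0.246). SPRY1, a relative of SPRY2, had -0.48 ± 0.22 (adjusted p = 0.232) and was named after its value was seen.

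**Figure D4:**
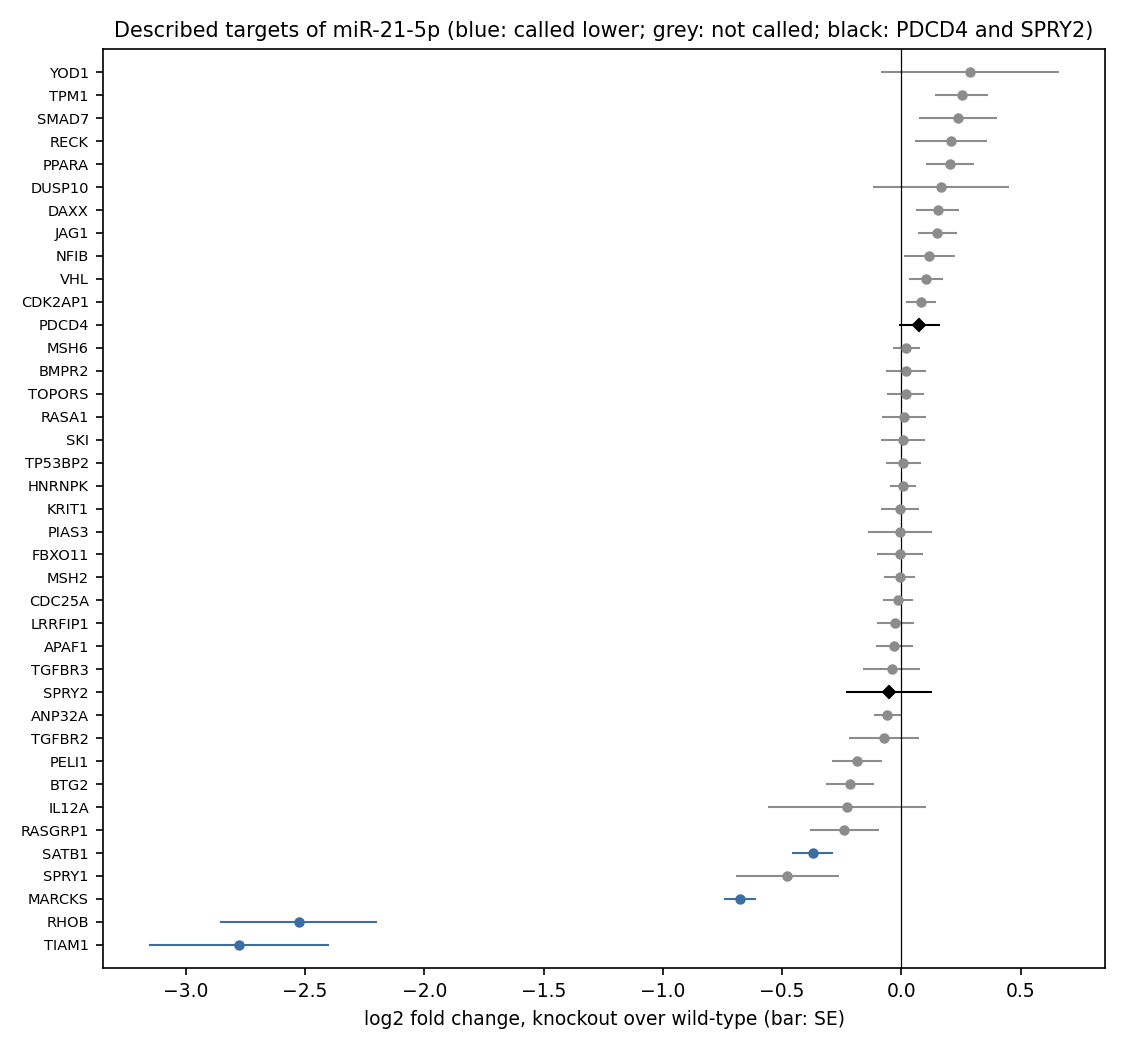
Log2 fold change, knockout over wild-type, of the tested genes described as miR-21-5p targets (1 of the 40 is not shown), 1 per line with a bar of 1 SE, from the highest at the top to the lowest. PDCD4 at 0.08 and SPRY2 at -0.05 (black diamonds) lie among genes near 0, and TIAM1, RHOB, MARCKS and SATB1, at -2.78, -2.53, -0.68 and -0.37, are the 4 called lower (blue).

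Genes that build the autophagosome with VMP1 showed no called change. Of 40 tested, 0 were higher and 0 lower with edgeR and with DESeq2, against 3.06% and 3.50% of all genes, 4 had an unadjusted p below 0.05, against 16.7% of all genes, and the median log2 fold change was -0.01 with 18 above and 22 below 0. MAP1LC3B, the lipid-coupled protein of the autophagosome membrane, whose gene has a near-identical copy that can share its reads, was at 44.6 and 34.9 CPM in knockout and 47.1 and 48.4 CPM in wild-type (-0.26 ± 0.09, adjusted p = 0.0925); it was called lower in the blocked fit (adjusted p = 0.0305). RAB7A, a GTPase for fusion with the lysosome, had -0.17 ± 0.07 (adjusted p = 0.185), the cargo receptor gene SQSTM1 had 0.15 ± 0.07 (adjusted p = 0.236) and ATG10, an enzyme of the ATG12 conjugation path, had 0.26 ± 0.14 (adjusted p = 0.382). The lowest value of the list was that of the kinase gene ULK2, -1.06, named after its value was seen, and it had 7 and 12 counts in knockout and 24 and 20 counts in wild-type (adjusted p = 0.225).

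Listed relatives of VMP1, calcium pump genes, ATG9A, ATG9B and XKR8 were likewise not called. Of these 8 genes, 0 were higher and 0 lower by edgeR and by DESeq2 (3.06% and 3.50% of all genes by edgeR). There was 1 unadjusted p below 0.05 (edgeR), and the median was 0.01. TMEM41B, the relative that acts with VMP1 as a lipid scramblase, was at 89.8 and 81.0 CPM in knockout and 88.6 and 83.5 CPM in wild-type (-0.01 ± 0.07). The knockout values spanned the wild-type values. The calcium pump gene ATP2A2, whose product VMP1 is known to activate, had 0.00 ± 0.06. Its relative ATP2A3 was at 8.51 and 9.40 CPM in knockout and 11.5 and 12.6 CPM in wild-type (-0.43 ± 0.14, adjusted p = 0.0633), and was called lower in the blocked fit (adjusted p = 0.0300). ATG9B had 0.66 ± 0.35 (adjusted p = 0.350), ATG9A 0.09, XKR8 0.12, TMEM41A 0.03 and TMEM64 -0.01.

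PDCD4 acts through the translation initiation factor eIF4A, and 15 tested genes for eIF4F subunits, their binding proteins and the kinase and ligase that remove PDCD4 had 0 higher and 0 lower calls with edgeR and with DESeq2 (3.06% and 3.50% of all genes by edgeR), 1 unadjusted p below 0.05 and a median log2 fold change of 0.01. EIF4A1, a gene of the helicase itself, was at 24.7 and 29.0 CPM in knockout and 28.8 and 25.6 CPM in wild-type (-0.02 ± 0.10). EIF4A2, from the same list, was at 336 and 310 CPM in knockout and 346 and 328 CPM in wild-type (-0.06 ± 0.06). EIF4G3, a scaffold subunit, was at 110 and 129 CPM in knockout and 101 and 111 CPM in wild-type (0.18 ± 0.07, adjusted p = 0.170), and was called higher in the blocked fit (adjusted p = 0.0368). BTRC, part of the ligase that marks PDCD4 for degradation, had -0.18 ± 0.09 (adjusted p = 0.321), and EIF4EBP1 and RPS6KB2 had 0.08 each.

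SPRY2 belongs to the feedback loop on ERK, where 17 other tested genes gave 2 called higher and 0 called lower (DESeq2 called none), against 3.06% and 3.50% of all genes, with a median of 0.04. Of these 17, 6 had an unadjusted p below 0.05 (edgeR), against 16.7% of all genes. They included PHLDA1 (0.46 ± 0.17, adjusted p = 0.122) and DUSP5 (-0.51 ± 0.25, adjusted p = 0.294), both named after their values were seen. DUSP4, a phosphatase that turns ERK off, was at 6.29 and 4.52 CPM in knockout and 2.98 and 2.75 CPM in wild-type (0.92 ± 0.22, adjusted p = 0.00300). The call was lost with DESeq2 (adjusted p = 0.0779) and without the first knockout library (adjusted p = 0.149). ETV1, an ETS factor induced by ERK, was at 6.62 and 7.59 CPM in knockout and 3.99 and 5.14 CPM in wild-type (0.63 ± 0.19, adjusted p = 0.0281). It lost its call with DESeq2 (adjusted p = 0.245), without the second knockout library (0.289) and without the first wild-type library (0.369). SPRED2, a relative of the Sprouty proteins, had -0.39 ± 0.13 (adjusted p = 0.0683), and was called lower in the blocked fit (adjusted p = 0.0407). SPRED1, SPSB1 and NF1 had -0.14, 0.14 and -0.07, and SPRY4, DUSP6 and IER3 had too few counts.

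Of 20 factors described to regulate MIR21 transcription, 1 was higher and 0 lower with edgeR and with DESeq2 (3.06% and 3.50% of all genes by edgeR), and the median was 0.02. ETS1, founding member of the ETS family, was at 19.4 and 17.04 CPM in knockout and 12.8 and 12.7 CPM in wild-type (0.51 ± 0.12, adjusted p = 0.00366), and lost its call without the first knockout library (adjusted p = 0.0782). STAT3, the activator of MIR21 downstream of interleukin-6, had -0.10 ± 0.07 (adjusted p = 0.532; named after its value was seen), and SMAD2, ZEB1 and REST had 0.15, 0.16 and -0.14 (adjusted p = 0.193, 0.277 and 0.371). Of 16 genes for tailing, trimming or loading of mature miR-21, 0 were higher and 0 lower by either tool (3.06% and 3.50% of all genes by edgeR), with 1 unadjusted p below 0.05, a median of -0.05 and 10 values below 0 against 6 above. In knockout 6 of the 16 were lower and 1 higher without overlap, against 21.8% and 23.5% of all tested genes. PAPD5, now TENT4B, which adenylates the 3′ end of miR-21, had -0.19 ± 0.09 (adjusted p = 0.253). CELF1, an RNA-binding protein, had -0.11 ± 0.06 (adjusted p = 0.348), PAPD4 -0.16, ZCCHC11 -0.12 and TOE1 0.11. Over these gene lists together, with the cell type markers left out, 150 genes other than the members were tested. Of these listed genes, 3 were called higher and 4 lower, against 3.06% and 3.50% of all genes.

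**Figure D5:**
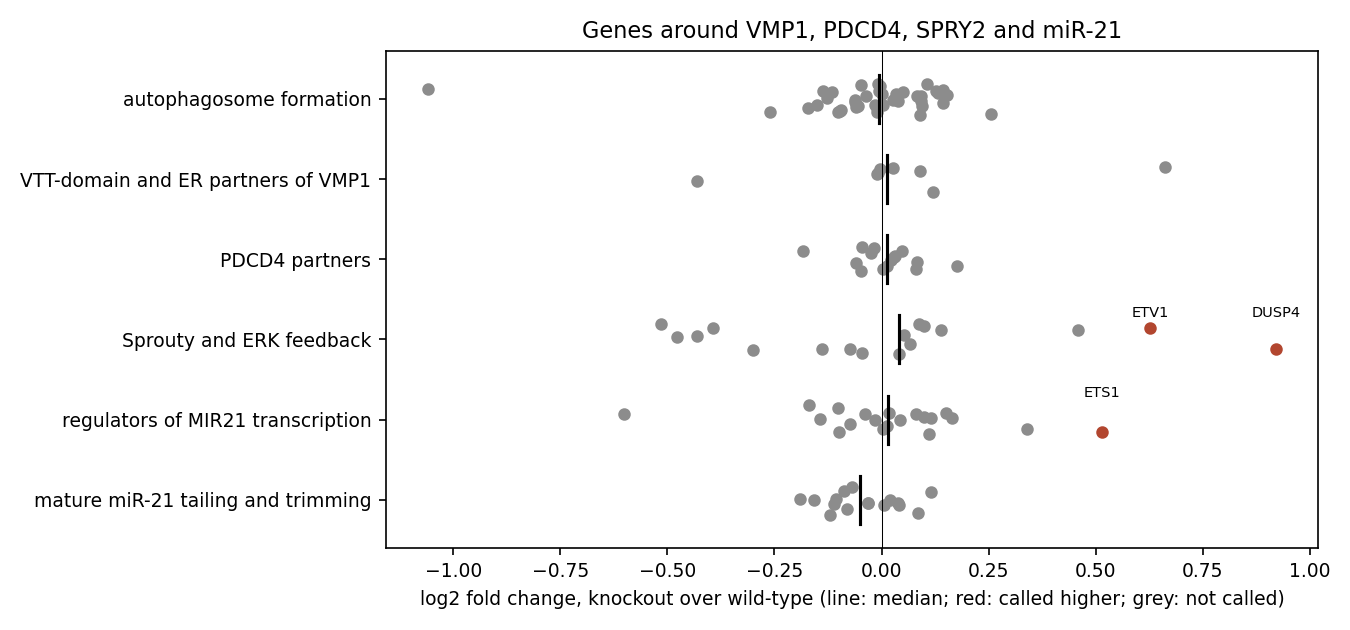
Log2 fold change, knockout over wild-type, of the tested genes of 6 lists around VMP1, PDCD4, SPRY2 and miR-21, 1 point per gene, with a black line at each list's median and red for genes called higher. The medians run from -0.05 to 0.04, and DUSP4, ETV1 and ETS1 are the called genes.

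PDCD4 and SPRY2 are also described as targets of other microRNAs, whose sequences show that none carries the miR-21 seed. Capitals again mark bases 2 to 8; sequences and GRCh38.p14 positions are from RefSeq.
hsa-miR-182-5p, chr7:129770447-129770470, minus strand: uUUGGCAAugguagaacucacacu
hsa-miR-183-5p, chr7:129774967-129774988, minus strand: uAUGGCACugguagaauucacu
hsa-miR-27a-3p, chr19:13836447-13836467, minus strand: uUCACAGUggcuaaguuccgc
hsa-miR-27b-3p, chr9:95085505-95085525, plus strand: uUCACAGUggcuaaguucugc
miR-182-5p, described for PDCD4, was at 8800 and 10845 CPM in knockout and 13862 and 8391 CPM in wild-type (log2 fold change -0.18 ± 0.34). Its neighbour miR-183-5p, also described for PDCD4 and with another seed, was at 2655 and 1734 CPM in knockout and 4216 and 2517 CPM in wild-type (-0.62 ± 0.40). Both overlapped between the groups and were not called (adjusted p = 0.999 each). miR-27a-3p and miR-27b-3p, which share the seed UCACAGU and are described for SPRY2, had 0.64 ± 1.05 and 0.37 ± 0.51 (adjusted p = 0.999 each). In CPM miR-27a-3p overlapped between the groups. miR-27b-3p, with 101 and 182 counts in knockout and 107 and 80 in wild-type, was higher without overlap, as were 17.4% of all tested microRNAs. miR-499a-5p had no counts, miR-208a-3p had 1 count in wild-type, and miR-23a-3p was below the count filter.

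The genes whose profile over the 4 RNA-seq libraries was most like that of VMP1 were sought among 9746 genes with a mean of at least 10 CPM, by the root mean square difference of log2 CPM after each was centred on its own mean. They were ZNF789 (0.0140), VCPKMT (0.0155), EIF1B (0.0182), TIMM9 (0.0286) and TRIM11 (0.0295), against a median of 0.176 over all candidates. The microRNAs most like miR-21-5p among 125 with a mean of at least 100 CPM were miR-4454 (0.277), miR-501-3p (0.361), miR-1972 (0.377), miR-148a-3p (0.389) and miR-1288-5p (0.390), against a median of 0.873. With 4 libraries, such closeness describes these libraries only. The nearest microRNA lay further from miR-21-5p than the nearest genes from VMP1. It came from far fewer candidates, and the median distance was also larger among microRNAs, so the 2 distances are not comparable. Of the microRNAs named, miR-1972 and miR-1288-5p overlapped between the groups.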

How the data were processed

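The deposited values are raw read counts, whole numbers for each gene symbol or mature microRNA name in a separate file for every library; per the submitters' processing notes FastQC, cutadapt, STAR, SAMtools, featureCounts and Subread were used with genome build hg38. Neither roles and versions nor annotation and strand setting are stated there, so counts of overlapping genes, antisense genes and near-identical copies are uncertain. An asterisk row of the microRNA files held 0 counts and was left out.

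Each assay was fitted separately with edgeR 4.0.16 in R 4.3.3 (TMM scaling, rows filtered by expression with a minimum count of 10, robust quasi-likelihood F test, Benjamini-Hochberg adjustment over all rows tested, threshold 0.05). The SE of a log2 fold change was obtained from its F statistic, as the absolute value over sqrt(F). Intervals are 95% (Clopper-Pearson for shares, exact Poisson for CPM), the limit for a count of 0 is 3 counts, and both describe counting error alone, because the counts are of reads, not of marked molecules. Replicates differed by more than sampling noise (chi-square per degree of freedom 4.80 in knockout and 3.95 in wild-type for RNA-seq, 29.0 and 30.6 for small RNA), so none was counted as a duplicate.

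The members and lists were chosen with earlier results of these data known. Named genes were the members, called list members or, with none called, the 2 of smallest p, up to 4 further list members of at least 10 CPM with the largest change, all tested neighbours, the listed microRNAs and the 5 most alike rows. Some genes outside this rule, such as TMEM41B, TMEM64, ATP2A2, EIF4A1 and EIF4A2, were also named, with their values known. The shared date in the labels pairs the samples across groups; deviations of same-date samples from their group means correlated at 0.0825 (RNA-seq) and -0.0947 (small RNA), and the date was used as a block in an alternative. Other alternatives were RLE factors, library size only, DESeq2 1.42.0, no count filter, a non-robust fit, small RNA without miR-3168 and miR-8052, and leaving out each library. Target sites in messenger RNAs were not searched. The values of 1 listed target are not reported here, though it is included in the counts.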

Additional observations from a re-analysis of the deposited data

How the results depend on the processing

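VMP1 stayed lower in all 10 alternatives (log2 fold change -0.37 to -0.22), PDCD4 stayed slightly higher (0.04 to 0.11), and miR-21-5p stayed lower in all 11 (-1.82 to -0.57), where leaving out 1 library gave both ends. Leaving out 1 library moved SPRY2 between -0.12 and 0.02, and without knockout replicate 1 its log2 fold change reversed to 0.024. Leaving out 1 wild-type library gave a 5p share of miR-21 of 90.5 to 94.7%. Scaling by library size alone shifted the median log2 fold change of microRNAs by 0.25 and that of genes by -0.03. With the date as a replicate block, the paired fit called 767 genes higher (497 without it), 2 microRNAs higher (0) and 4 lower (2), 5 listed genes higher (3) and 7 lower (4), and 1 neighbour of VMP1 higher (0); it turned no direction of a member. DESeq2 called 255 genes higher and 331 lower (568 with edgeR), 2 microRNAs higher and 1 listed gene higher. Without the count filter 2 microRNAs were called higher. Leaving out 1 library gave 240 (without wild-type replicate 1) to 684 genes higher and 340 (without wild-type replicate 2) to 705 lower, 0 to 3 microRNAs higher and 0 (without wild-type replicate 1) to 3 lower, and 2 to 3 listed genes higher and 3 to 6 lower. The fits without 1 library tested more rows, and the lone library of a group is assumed to vary like the other group; causes of these changes were not tested. The shallow small RNA libraries, where 1 count is 2.91 to 5.50 CPM, limit every statement on miR-21, and 2 libraries per group limit all others.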
